A study of Homo sapiens with 9 samples.

Results

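The arrays labelled biological replicate 1 were compared with the arrays labelled replicate 2 or 3, to see which transcripts followed the replicate number rather than the vector. The 3 replicate 1 arrays, 1 from each vector, were chosen by the replicate number in their titles, and the other 6 of the 9 arrays of the series carried number 2 or 3. Each vector had 3 arrays. The cells were labelled SK-BR-3, a human breast cancer line, stably transfected with pcDNA3.1/V5/His-pTOPO carrying the cDNA of TFPIα, carrying the cDNA of TFPIβ, or empty. TFPIα is the secreted and TFPIβ the cell surface isoform of tissue factor pathway inhibitor. All groups were grown in RPMI1640 with 10% fetal bovine serum and under a selection drug, puromycin in the sample labels and neomycin in the study's methods, and each group was a pool of stably transfected cells, so that the 3 RNA isolations of a vector came from 1 pool. The labels do not say that equal numbers mark RNA isolated together. Replicates here therefore measure the spread between isolations from the same pools, and what an isolation round shared (culture, RNA, labelling or hybridisation) cannot be told apart.

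The array was the Affymetrix Human Gene 1.0 ST, and values are log2 signals, on which a difference of 1 is a 2-fold change. Of 33297 probe sets, 17482 reached a signal of 5 on at least 1 array and were tested. Array medians over all probe sets lay between 4.78 and 4.88. The TFPI probe set read 5.66, 5.55 and 5.81 on the replicate 1 arrays of TFPIα, TFPIβ and the empty vector, and 5.51 to 6.48 on the other 6, so that neither TFPI vector stood above the empty vector in any replicate. By the study's account the cDNAs held coding sequence alone, and array probes for the untranslated ends of TFPI did not detect them. With the PLIER algorithm, which leaves out probes of low signal, the study reports TFPI as upregulated with either TFPI vector. The deposited signal of this probe set did not show that rise and is no clear check of the vectors. SK-BR-3 is known for ERBB2 amplification and luminal keratins. ERBB2 read 5.63 to 6.24 over the 9 arrays, and the luminal keratins KRT8 and KRT19 read 5.68 to 6.20 and 4.64 to 5.25. Keratins of simple epithelium thus lay on both sides, since KRT18 read 9.49 to 10.76 and KRT7 10.18 to 10.77. The basal keratins KRT5 and KRT14 read 12.40 to 12.83 and 11.99 to 12.74. The arrays are therefore called by their labels only.

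Replicate cultures of one line are known to vary in cell density, time since feeding and handling. Immediate early genes, which are switched on within minutes of a stimulus without new protein synthesis, and the cytokine and feedback genes driven by NF-κB and MAP kinase signalling are among the transcripts known to respond to such conditions, as are proliferation, amino acid and sterol genes. The lists below follow these programmes.

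The replicate number accounted for 37.7% of the total sum of squares of the 17482 transcripts, and the vector for 32.5%. The 37.7% split into 17.5% for replicate 1 against replicates 2 and 3 and 20.2% for replicate 3 against replicate 2, each with 1 degree of freedom. Replicate 1 thus stood no further from the others than replicate 3 stood from replicate 2. The vector had 16.2% per degree of freedom and the remainder 7.45%. The 3 replicate 1 arrays correlated at 0.984 to 0.985 across transcripts, against 0.955 to 0.984 among the replicate 2 arrays and 0.973 to 0.987 among the replicate 3 arrays. Pairs of another number and vector reached 0.987 (lowest 0.944) and pairs of the same vector 0.990 (lowest 0.953), so that the closeness was not particular to replicate 1. These correlations are across transcripts of the same table, which are not independent.

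**Figure D1:**
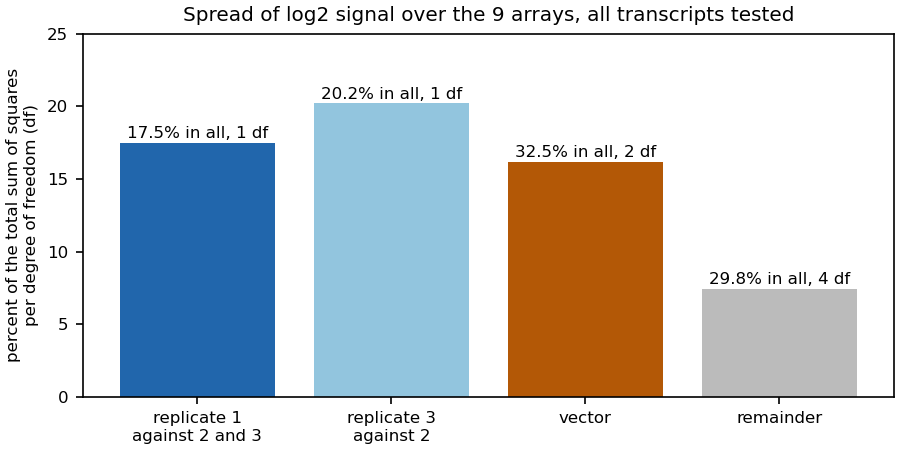
Percent of the total sum of squares of log2 signal per degree of freedom, over 17482 transcripts and 9 arrays, for replicate 1 against replicates 2 and 3, replicate 3 against replicate 2, the vector and the remainder. The bars for replicate 1 (17.5), replicate 3 against 2 (20.2) and vector (16.2) stand above the remainder (7.45).

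With the vector as a block, no transcript was differentially expressed between replicate 1 and replicates 2 and 3 at an adjusted p under 0.05 and a 2-fold difference (limma, 0% of 17482, lowest adjusted p = 0.152). An unadjusted p under 0.05 was reached by 1987 transcripts (11.4%), 1221 of them higher in replicate 1 (6.98%) and 766 lower (4.38%). A 2-fold difference was reached by 155 transcripts, of which 74 were higher (0.423%) and 81 lower (0.463%). Without repeats of identical values these were 74 higher and 61 lower. The replicate 1 array stood above both other arrays of its own vector in all 3 vectors for 1592 transcripts (9.11%) and below both for 886 (5.07%). All 3 replicate 1 arrays lay above all 6 others for 682 transcripts (3.90%) and below them for 348 (1.99%). This surplus of higher transcripts was tied to array scale: with each array centred on its median the counts were 1035 above and 1436 below, and of the transcripts at an unadjusted p under 0.05, 42.5% were higher, against 61.4% on the deposited scale. The median of all differences was 0.03 as deposited and -0.01 after centring.

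Taken one at a time, replicate 1 differed from replicate 2 at an adjusted p under 0.05 for 26 transcripts (limma, 0.149%), 20 higher (0.114%) and 6 lower (0.0343%). At least 2-fold apart were 20 of the 26 (0.114%), 15 higher (0.0858%) and 5 lower (0.0286%). Only 5 of the 26 carried a gene symbol. Whether the other 21 probe sets read gene transcripts or array controls is not known here. TSPAN1, a tetraspanin of epithelial membranes, and HMGN5, a nucleosome-binding protein, were 1.46 ± 0.13 and 0.96 ± 0.10 higher in replicate 1 (log2, SE). TNFAIP3, which encodes the NF-κB inhibitor A20, NFKBIZ, an inducible nuclear NF-κB cofactor, and TRIB1, a pseudokinase, were lower by the differences -1.56 ± 0.14, -1.82 ± 0.21 and -1.14 ± 0.13. Each of the 26 had an adjusted p of 0.0495, and with any 1 array left out the fit gave 0 to 2 calls at 2-fold, 2 of them only without the TFPIα replicate 3 array. All 26 lay on the same side in replicate 1 against replicate 3, a comparison that shares the replicate 1 arrays. Against replicate 3 alone, no transcript passed (limma, lowest adjusted p = 0.212, 2651 at an unadjusted p under 0.05, 15.2%). None passed between replicate 3 and replicate 2 (lowest adjusted p = 0.302, 2731 at an unadjusted p under 0.05, 15.6%).

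Among transcripts with 1 gene symbol, the 10 with the smallest p-values and a higher level in replicate 1 did not pass the adjusted threshold (adjusted p 0.152 to 0.175). They were chosen by this contrast, and their values are a description. TSPAN1 read 6.83, 6.87 and 7.78 in replicate 1 of TFPIα, TFPIβ and the empty vector, and 5.44, 5.77 and 6.40 as the lowest, median and highest of replicates 2 and 3. The difference was 1.32 ± 0.14 (log2, SE), with adjusted p = 0.152. AGR2, an endoplasmic reticulum disulfide isomerase of secretory epithelium, read 5.43, 5.54 and 6.31 in replicate 1 against 3.63, 4.36 and 4.75 in the others. In both genes the empty vector array was the highest of the replicate 1 arrays. AGR2 differed by 1.48 ± 0.17, but it passed the signal filter of 5 on replicate 1 arrays alone. The filter thus favours a higher replicate 1 for this gene.

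GAS1, a surface protein that acts as a hedgehog co-receptor and was first described in growth-arrested cells, read 8.79, 8.48 and 8.61 in replicate 1 and 7.29, 7.54 and 7.86 (lowest, median, highest) in replicates 2 and 3. GADD45B, a stress-induced regulator of kinase signalling, read 8.34, 8.71 and 8.88 in replicate 1 and 7.19, 7.53 and 8.04 in the others. Both differed by about 2-fold, at 1.06 ± 0.14 and 1.08 ± 0.14 on the log2 scale. The membrane glycoprotein gene GPM6B, SERTAD3, a transcriptional coregulator, the rhomboid family gene RHBDD2 and G6PC3, a glucose-6-phosphatase subunit, differed by 0.84, 0.84, 0.65 and 0.49. The remaining 2 of the 10 were the let-7 genes MIRLET7D and MIRLET7F1.

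**Figure D2:**
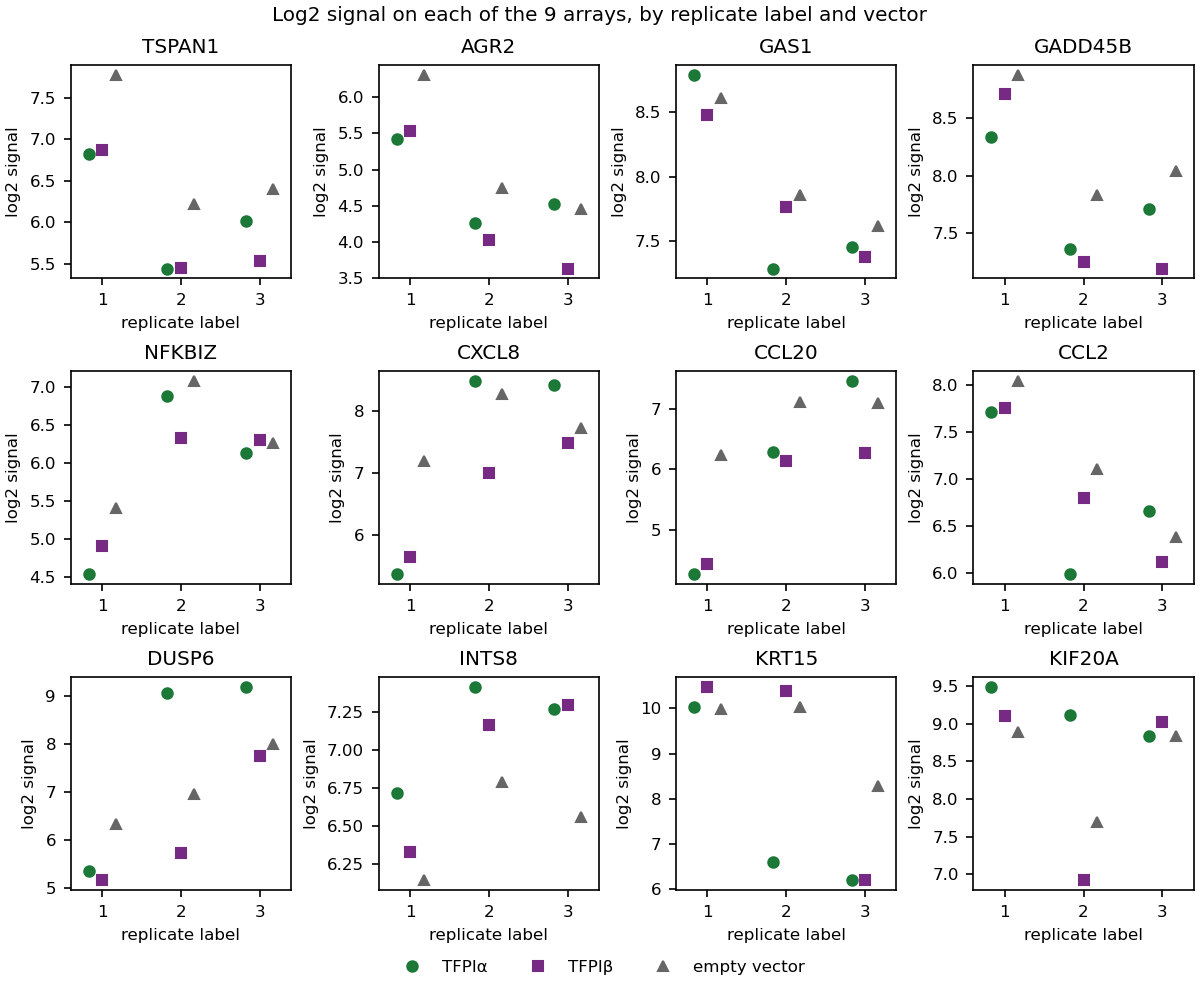
Log2 signal of 12 genes on each of the 9 arrays, by replicate label (horizontal axis) and vector (symbols). TSPAN1, AGR2, GAS1, GADD45B and CCL2 lay higher on every replicate 1 array than on any other array, and NFKBIZ lay lower on every replicate 1 array, while KRT15 and KIF20A overlapped between the replicates.

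The let-7 family stood out as a group after its values were seen. These microRNAs repress growth-promoting transcripts that hold matches to a shared seed, the bases at positions 2 to 8, and are known as markers of differentiated cells. The array read their precursor or host transcripts, and did not measure the mature form. The mature sequences of 4 members are shown because the probe sets concern separate genes that encode the same seed, printed in capitals (RefSeq, GRCh38.p14): MIRLET7F1 at chr9:94176353-94176374 (+), MIRLET7D at chr9:94178841-94178862 (+), MIRLET7I at chr12:62603691-62603712 (+) and MIRLET7A2 at chr11:122146568-122146589 (-).
hsa-let-7f-5p: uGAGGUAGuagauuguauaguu
hsa-let-7d-5p: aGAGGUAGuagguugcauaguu
hsa-let-7i-5p: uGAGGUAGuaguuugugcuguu
hsa-let-7a-5p: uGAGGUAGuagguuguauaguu
In the reference table, 11 of 2370 mature human microRNAs have this seed.

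MIRLET7F1 read 5.40, 5.95 and 6.10 in replicate 1 of TFPIα, TFPIβ and the empty vector, and 3.52, 4.32 and 4.93 (lowest, median, highest) in replicates 2 and 3. MIRLET7D, its neighbour on chromosome 9, read 5.83, 6.11 and 6.15 in replicate 1 and 4.60, 4.79 and 5.23 in the others. The groups did not overlap in either gene, and the differences were 1.48 ± 0.21 and 1.19 ± 0.15 (log2, SE; adjusted p = 0.175 and 0.152). MIRLET7I and the host transcript MIRLET7BHG differed by 0.38 ± 0.08 and 0.45 ± 0.10. The array held 13 probe sets annotated to the family, MIR98 included, of which 6 were tested, 2 of them with several symbols and not named here. The mean of replicate 1 was the higher one in all 13, and in 11 of the 13 the replicate 1 array lay above both others in all 3 vectors. Over all transcripts tested, 58.6% had the higher mean in replicate 1 and 9.11% lay above both others in all 3 vectors. The exceptions were MIRLET7E and MIRLET7F2, which were under the signal filter with 5 others, where signals are near the floor of the array. The median difference was 0.45 over the 13 and 0.44 over the 6 tested, against 0.01 over the 36 other microRNA genes tested. MIRLET7F1 and a tested probe set with several symbols passed the filter on replicate 1 arrays alone. Such members tilt the median of the 6 towards a higher replicate 1. The shares over all transcripts and the 0.01 are of probe sets past the filter, and 7 of the 13 were under it.

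**Figure D3:**
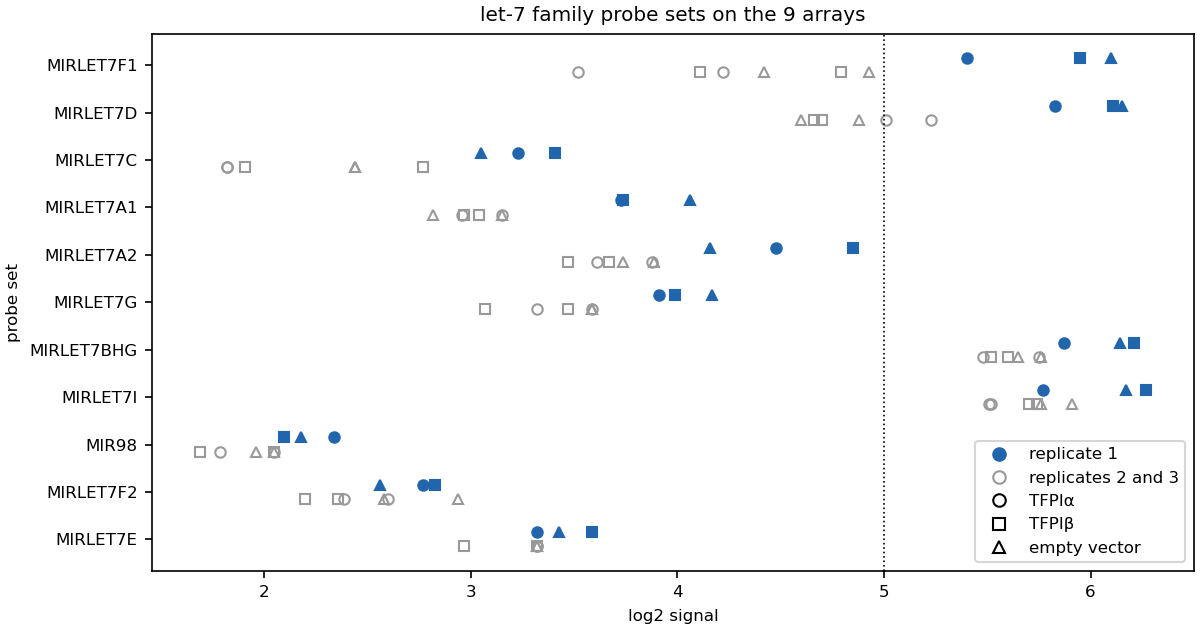
Log2 signal of the 11 let-7 family probe sets with 1 gene symbol, replicate 1 filled and replicates 2 and 3 open, with the symbol shape giving the vector and the dotted line the filter at 5. Replicate 1 lay to the right of all other arrays for MIRLET7F1 and MIRLET7D, and overlapped them for MIRLET7E and MIRLET7F2.

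Cytokine and feedback transcripts of the NF-κB pathway lay lower in replicate 1. NF-κB is the inducible factor that drives inflammatory chemokines together with the inhibitors that end its own activity. Of 30 measured genes of the NF-κB list, 10 were lower at an unadjusted p under 0.05, against 4.38% of all transcripts, and 1 was higher, against 6.98%. None passed the adjusted threshold. The 10 were the inhibitors NFKBIA, NFKBIZ and TNFAIP3, the cytokines IL1A, IL1B and IL6, and the chemokines CXCL8, CXCL1, CXCL3 and CCL20. The median of the list was -0.11, against 0.03 for all transcripts, and 21 of the 30 lay below 0, against 41.4% of all transcripts. The median was -0.32 in TFPIα, -0.02 in TFPIβ and -0.18 in the empty vector, and it was -0.05 without the TFPIα replicate 1 array, -0.07 without the TFPIα replicate 3 array and -0.23 without the TFPIβ replicate 1 array.

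NFKBIZ read 4.53, 4.90 and 5.41 in replicate 1 of TFPIα, TFPIβ and the empty vector, and 6.13, 6.32 and 7.08 (lowest, median, highest) in replicates 2 and 3, with no overlap. CXCL8, the neutrophil chemokine interleukin-8, read 5.36, 5.64 and 7.20 in replicate 1 and 7.0, 8.01 and 8.49 in the others. CCL20, a chemokine for lymphocytes and dendritic cells, read 4.26, 4.44 and 6.24 in replicate 1 and 6.14, 6.69 and 7.47 in the others. In both chemokines the empty vector array of replicate 1 reached into the range of the other replicates, and each replicate 1 array still lay below both arrays of its own vector. The differences were -1.55 ± 0.24 for NFKBIZ, -1.84 ± 0.38 for CXCL8 and -1.75 ± 0.35 for CCL20 (adjusted p = 0.185, 0.205 and 0.205). By vector, CXCL8 differed by -3.10 in TFPIα, -1.61 in TFPIβ and -0.80 in the empty vector.

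CCL2, the monocyte chemokine, was the list member higher in replicate 1. It read 7.71, 7.75 and 8.04 in replicate 1 and 5.98, 6.52 and 7.10 in replicates 2 and 3, with no overlap and a difference of 1.33 ± 0.23 (adjusted p = 0.185). IL6 differed by -1.63 ± 0.64, and its TFPIα arrays carried most of it (-3.37, against -1.36 in TFPIβ and -0.16 in the empty vector). PTX3, a secreted pattern recognition protein, and the interleukin receptors IL1R2, a decoy, and IL1RL1 differed by -1.50 ± 0.43, -2.13 ± 0.48 and -1.34 ± 0.55. These 4, TNFAIP3, HMGN5, MIRLET7I and MIRLET7BHG were named after their values were seen.

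The proximal promoters of 3 of the lower genes are shown for the motifs they hold, each from 250 bases before to 50 after the transcription start (RefSeq, GRCh38.p14). Capitals mark the AP-1 site TGANTCA, the NF-κB consensus and the TATA box TATAAA, each searched on both strands. Sites that depart from these patterns are not marked, so that a promoter with no marked NF-κB site, as for CXCL8, may still hold one. The windows lie at chr4:73740319-73740618 (+) for CXCL8, chr7:22726950-22727249 (+) for IL6 and chr3:101827740-101828039 (+) for NFKBIZ, the first of its 2 annotated starts.
CXCL8: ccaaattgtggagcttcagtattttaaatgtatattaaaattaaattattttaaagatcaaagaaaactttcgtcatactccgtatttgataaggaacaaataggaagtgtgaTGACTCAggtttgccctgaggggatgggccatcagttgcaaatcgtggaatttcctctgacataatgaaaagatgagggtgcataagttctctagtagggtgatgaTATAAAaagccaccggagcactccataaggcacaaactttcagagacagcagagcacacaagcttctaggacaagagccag
IL6: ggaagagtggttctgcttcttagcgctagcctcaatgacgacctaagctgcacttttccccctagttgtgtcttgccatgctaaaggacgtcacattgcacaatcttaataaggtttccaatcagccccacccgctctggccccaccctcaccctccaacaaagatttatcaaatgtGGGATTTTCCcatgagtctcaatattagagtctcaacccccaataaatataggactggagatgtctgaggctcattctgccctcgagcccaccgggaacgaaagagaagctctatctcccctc
NFKBIZ: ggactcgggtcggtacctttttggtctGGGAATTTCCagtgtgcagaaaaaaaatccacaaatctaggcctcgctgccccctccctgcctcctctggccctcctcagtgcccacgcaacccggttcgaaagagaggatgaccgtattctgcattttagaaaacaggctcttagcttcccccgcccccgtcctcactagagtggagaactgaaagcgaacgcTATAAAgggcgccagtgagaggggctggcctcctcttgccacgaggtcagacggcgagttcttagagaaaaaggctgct
The NF-κB consensus was found in the promoters of 7 of the 10 lower list members and in 9.03% of the 9060 tested genes with a promoter sequence. The list holds known NF-κB targets, so that a high share is a property of the list and says nothing of these arrays. TATAAA was found in 5 of the 10 and in 8.71% of tested genes, and TGANTCA in 2 of the 10 and in 6.73%.

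Immediate early genes and the feedback regulators of MAP kinase signalling also lay lower. Of 29 measured genes of this list, 8 were lower at an unadjusted p under 0.05 (4.38% of all transcripts) and none was higher, and the list median was -0.28. No member passed the adjusted threshold. DUSP6, the phosphatase that switches off ERK, read 5.36, 5.17 and 6.35 in replicate 1 of TFPIα, TFPIβ and the empty vector, and 5.73, 7.89 and 9.20 (lowest, median, highest) in replicates 2 and 3. The difference was -2.16 ± 0.60 (adjusted p = 0.285), and the replicate 2 array of TFPIβ (5.73) lay below the replicate 1 array of the empty vector. FOSB, an AP-1 subunit, IER3, an early response gene, and NR4A2, an orphan nuclear receptor, lay lower on all 3 replicate 1 arrays than on any other, with differences of -1.05 ± 0.36, -0.62 ± 0.20 and -0.67 ± 0.15. EREG, an EGF receptor ligand, differed by -1.26 ± 0.40. The list median was -0.61 in TFPIα, -0.09 in TFPIβ and -0.12 in the empty vector, and without the TFPIα replicate 1 array it was -0.05.

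Among transcripts with 1 gene symbol, the 10 with the smallest p-values and a lower level in replicate 1 (differences -1.93 to -0.43, adjusted p 0.158 to 0.185) held 7 genes of chromosome 8, and the 10 on the higher side held none. These 10 were also chosen by this contrast. INTS8, an Integrator complex subunit, read 6.72, 6.33 and 6.14 in replicate 1 of TFPIα, TFPIβ and the empty vector, and 6.56, 7.22 and 7.42 (lowest, median, highest) in replicates 2 and 3. The groups overlapped there, although each replicate 1 array lay below both arrays of its own vector, and the difference was -0.69 ± 0.10 (adjusted p = 0.175). VIRMA, a subunit of the RNA adenosine methylation complex, DPY19L4, and CPNE3, a calcium-dependent phospholipid-binding protein, differed by -0.45 ± 0.07, -0.43 ± 0.07 and -0.44 ± 0.08. These 4 and REXO1L1P fell in the same window of 25 neighbouring genes. SCRIB, a cell polarity scaffold, and TRIB1 lay further along the chromosome and differed by -0.48 ± 0.07 and -0.97 ± 0.15.

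The lower signal extended to neighbouring genes over part of chromosome 8, a pattern noticed in the data and therefore described with no test. Of 397 chromosome 8 genes, 264 (66.5%) lay below 0 in replicate 1, against 31.6% to 50.5% on each of the 22 other chromosomes. An unadjusted p under 0.05 with a lower level was reached by 15.6% of the chromosome 8 genes, against 0.912% to 5.96% elsewhere. Of 444 genome-wide windows of 25 neighbouring genes, the 7 with the lowest medians were consecutive windows of chromosome 8, from HOOK3 to NSMCE2, and 9 of the lowest 10 lay on that chromosome. The lowest, from ZNF706 to EXT1, had a median of -0.30 with 24 of 25 genes below 0. Over the 175 genes of the 7 windows the median was -0.24, with 152 below 0, against 0.04 over the other chromosomes. Windows 1 to 5 of chromosome 8, from FBXO25 to RNF170, did not share this, with medians of -0.00 to 0.17. The 0.17, from TNFRSF10D to ZNF395, was the highest median of the 444 windows.

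The chromosome 8 difference was found in both TFPI vectors and was near 0 in the empty vector. Over the 175 genes, replicate 1 differed from replicates 2 and 3 by a median of -0.32 in TFPIα and -0.39 in TFPIβ, and by -0.02 in the empty vector. Set against each gene's mean over the 9 arrays, the replicate 1 arrays of TFPIα and TFPIβ stood at -0.07 and -0.17, and the replicate 2 and 3 arrays of these vectors at 0.19 to 0.26. The replicate 1 array of the empty vector stood at -0.23 and its other arrays at -0.17 and -0.22. The replicate 1 arrays of the TFPI vectors thus lay nearer to the 3 empty vector arrays than to the other arrays of their own vectors. The difference between vectors over this stretch was not tested. Some named genes did not follow this median. In the empty vector CPNE3 and DPY19L4 differed by -0.35 each and REXO1L1P by -1.64. TRIB1, beyond the stretch, differed by -1.09 there.

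**Figure D4:**
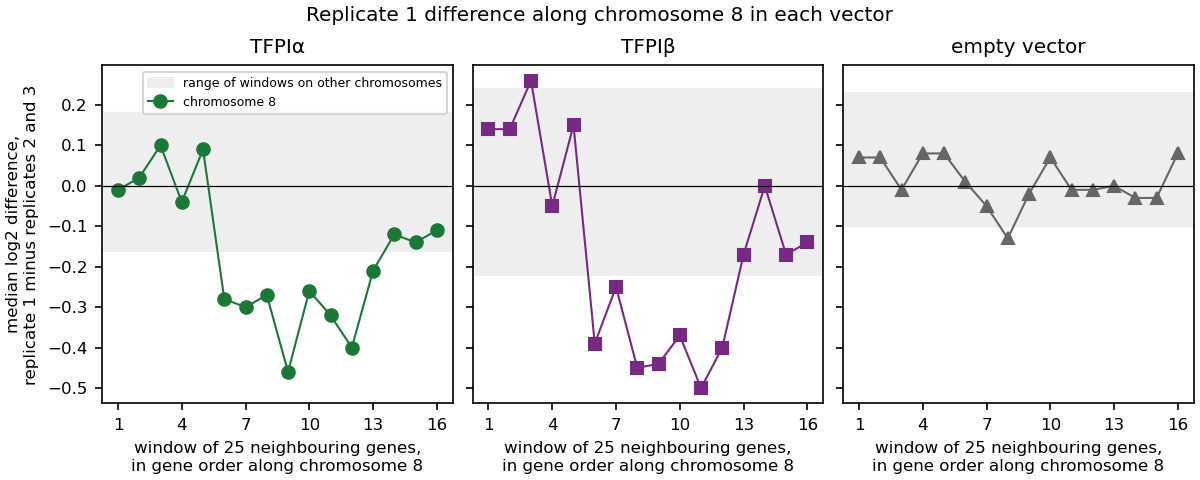
Median log2 difference of replicate 1 minus replicates 2 and 3 in 16 windows of 25 neighbouring genes (22 in the last) in gene order along chromosome 8 (points), in TFPIα, TFPIβ and the empty vector, with the range of windows on the other chromosomes in grey. Windows 6 to 12 lay below the grey range in TFPIα and TFPIβ, as did window 13 in TFPIα, and in the empty vector window 8 alone (-0.13).

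The remaining lower transcripts of the 10 were SLC39A10, a plasma membrane zinc importer, at -0.77 ± 0.13, and DUX4, a repeat-encoded homeobox gene, at -0.89 ± 0.15. REXO1L1P, a pseudogene of a multicopy family, had the largest difference of the 10 at -1.93 ± 0.26. It read 5.59, 5.04 and 5.27 in replicate 1 and 6.74, 7.17 and 8.03 in replicates 2 and 3, with no overlap. The array held 6 tested probe sets of REXO1L1P, 5 of them with identical values and a smaller difference, -1.37 ± 0.24. The windows above used a probe set of this kind. Probe sets of such copies cannot be told apart, so that the 6 count as 1 or 2 measurements. Over the table, 507 of the tested probe sets had values identical to another.

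Several lists of biosynthetic and stress genes had medians above that of all transcripts (0.03), while no member of any list passed the adjusted threshold (limma). Interferon-stimulated genes had a median of 0.22, 38 of 43 lay above 0 (58.6% of all transcripts), and 14 of 43 were higher at an unadjusted p under 0.05, against 6.98% of all transcripts. Among them were ISG20, an antiviral exonuclease, IFI6, an interferon-induced mitochondrial protein, and PSMB9, an immunoproteasome subunit, at 0.29 ± 0.07, 0.45 ± 0.11 and 0.46 ± 0.11. Targets of ATF4, the factor of the amino acid response, had a median of 0.32, with 7 of 35 higher at an unadjusted p under 0.05 and 1 lower. The ATF4 list median was 0.20 without the empty vector replicate 1 array and 0.12 without its replicate 2 array. SLC7A5, a transporter of large neutral amino acids, differed by 0.70 ± 0.20. Genes of the unfolded protein response had a median of 0.20 (7 of 22 higher, none lower), and those of cholesterol and fatty acid synthesis 0.21 (6 of 28 higher, none lower), with TM7SF2, a sterol reductase, at 0.34 ± 0.07. Respiratory chain subunits had a median of 0.13 with 10 of 54 higher and none lower. In TFPIα the median was 0.07 for the interferon list and 0.01 for the unfolded protein response, against 0.29 and 0.27 in TFPIβ and 0.26 and 0.32 in the empty vector. Centring the arrays lowered these list medians by about the shift of all transcripts and turned none of them. Against replicate 3 alone, the ATF4, unfolded protein and cholesterol lists had medians of 0.04, 0.05 and 0.07. Against replicate 2 alone they had 0.40, 0.32 and 0.28, so that these lists set replicate 2 apart more than replicate 1. The interferon list had 0.26 against replicate 3 and 0.21 against replicate 2, and the respiratory chain list 0.21 and 0.08.

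KRAB zinc finger repressors, which silence retroelements, had a median of 0.06 with 10 of 32 higher at an unadjusted p under 0.05 and none lower, against 6.98% and 4.38% of all transcripts. Over all 282 measured ZNF genes, 35 were higher and 8 lower by the same measure, and the median was 0.05. Genes of adhesion lay on both sides. CLDN1, a tight junction claudin, differed by 1.36 ± 0.22 and CDH2, N-cadherin, by 0.75 ± 0.14, while ITGA2, the α2 integrin subunit of collagen receptors, differed by -0.76 ± 0.18. COL8A1, a chain of collagen VIII, differed by 0.68 ± 0.11. CDH2 and COL8A1 passed the signal filter on replicate 1 arrays alone, with at most 4.30 and 4.87 in replicates 2 and 3. The filter thus favours a higher replicate 1 for both.

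**Figure D5:**
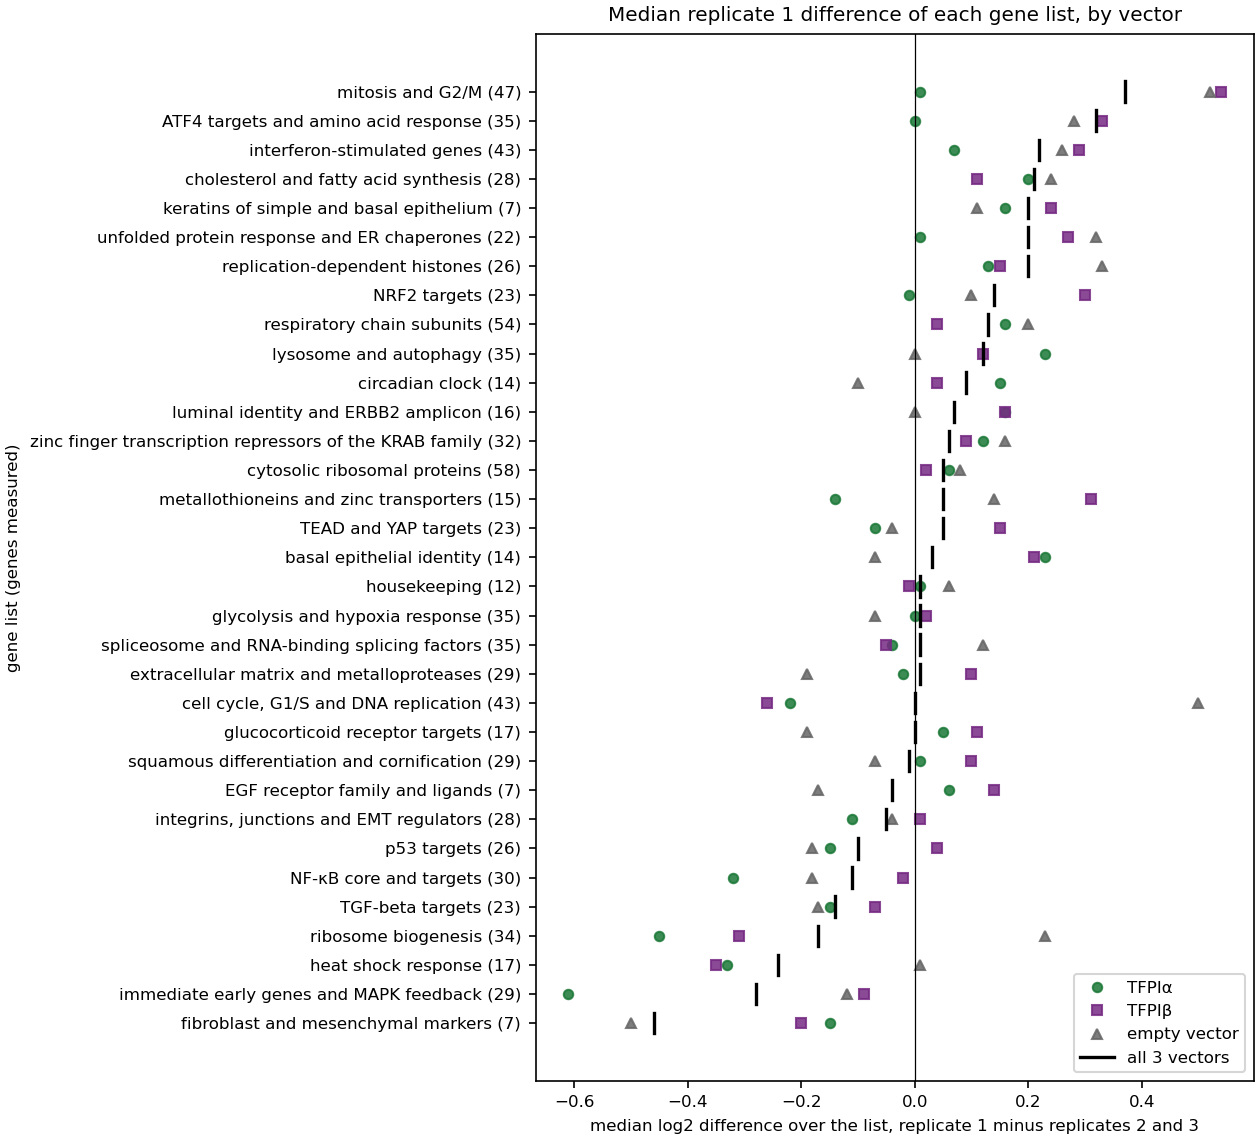
Median log2 difference, replicate 1 minus replicates 2 and 3, of each gene list with at least 7 measured genes, over all 3 vectors (black ticks) and in each vector (symbols). Mitosis genes (0.37) lay highest and fibroblast markers (-0.46) and the immediate early and MAPK feedback list (-0.28) lowest, with the vectors apart by more than the median itself in several lists.

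Proliferation genes varied within the 6 comparison arrays rather than with replicate 1. All 47 measured mitosis and G2/M genes lay above 0, with a median of 0.37, but none reached an unadjusted p under 0.05. Set against each gene's mean, the list stood at 0.61, 0.05 and 0.08 on the replicate 1 arrays of TFPIα, TFPIβ and the empty vector. It stood at -1.56 on the TFPIβ and -1.04 on the empty vector replicate 2 array, and at 0.12 to 0.62 on the other 4. KIF20A, a mitotic kinesin, read 9.49, 9.10 and 8.89 in replicate 1 and 6.92, 8.83 and 9.12 (lowest, median, highest) in the others. The list median was 0.06 without the TFPIβ replicate 2 array, 0.19 without the empty vector replicate 2 array and 0.63 without the TFPIβ replicate 3 array. The G1/S and DNA replication list had a median of 0.00, with medians of -0.22 in TFPIα, -0.26 in TFPIβ and 0.50 in the empty vector, and it lay between -0.21 and 0.33 with 1 array left out. Ribosome biogenesis genes lay below 0 for 32 of 34 genes (median -0.17), with -0.45 in TFPIα, -0.31 in TFPIβ and 0.23 in the empty vector. That median was -0.04, -0.10, -0.26, -0.07 and -0.37 without the TFPIα replicate 1, TFPIβ replicate 1, TFPIβ replicate 2, TFPIβ replicate 3 and empty vector replicate 1 arrays.

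The largest difference of a list member was that of the basal keratin KRT15, at 2.21 ± 0.94 (adjusted p = 0.439). KRT15 read 10.02, 10.48 and 9.98 in replicate 1 and 6.19, 7.45 and 10.39 (lowest, median, highest) in replicates 2 and 3. The replicate 2 arrays of TFPIβ (10.39) and the empty vector (10.04) were at the level of replicate 1, so that the gene separated replicate 3 and the TFPIα replicate 2 array from the rest.

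Of 12 leukocyte markers, 3 passed the signal filter, of 6 endothelial markers 2, and of 4 erythroid markers none. Of 8 fibroblast markers, 4 passed, and the log2 of the summed signal of all 8 was 10.09 to 10.70 in replicate 1 and 9.95 to 11.32 in replicates 2 and 3. DCN, the matrix proteoglycan decorin, read 9.85, 9.66 and 10.52 in replicate 1 of TFPIα, TFPIβ and the empty vector and 9.48 to 11.14 in the others. The wider fibroblast and mesenchymal list had the lowest median of the lists plotted, at -0.46, with 6 of 7 genes below 0 and 1 lower at an unadjusted p under 0.05 (ACTA2, smooth muscle actin, -0.46 ± 0.17). By vector its median was -0.15 in TFPIα, -0.20 in TFPIβ and -0.50 in the empty vector. CD68, a lysosomal protein of macrophages that other cells also express, differed by -0.60 ± 0.12 with no overlap, and the log2 of the summed leukocyte markers was 8.56 to 9.15 in replicate 1 and 8.62 to 9.77 in the others. Their part in the results above was not tested.

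Transcripts with no gene symbol made up 4494 of the 17482 tested, and 90 of them were at least 2-fold apart (2%, 53 higher and 37 lower in replicate 1), against 0.397% of the 11838 transcripts with 1 symbol (19 higher and 28 lower). Of the 26 transcripts that differed between replicates 1 and 2, 21 had no symbol. Probe sets with no symbol are counted here and not named. The annotation used gives no gene for them, and some may be array controls. Their share is therefore no result about genes.

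The replicate 1 difference did not differ between vectors at an adjusted p under 0.05 for any transcript (limma F test of the interaction, lowest adjusted p = 1, 364 at an unadjusted p under 0.05, 2.08%). Each vector had 1 replicate 1 array, so that this test drew its spread from replicates 2 and 3 alone. CXCL8, IL1RL1 and FOSB had unadjusted interaction p-values of 0.00855, 0.0498 and 0.0471 in the limma fit, each with the largest difference in TFPIα. Among vectors, no transcript passed with no replicate term (limma F test, lowest adjusted p = 0.142, 1601 at an unadjusted p under 0.05, 9.16%).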

How the data were processed

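RNA from 3 isolations of each of 3 stable pools labelled SK-BR-3 was measured on 9 Affymetrix arrays. The deposited values are log2 signals per probe set, which the authors made with Partek Genomics Suite and RMA (versions not given in the sources used here). RMA equalises the distributions of the arrays before summarising probes, which can hide a shift common to all transcripts. Base 2 was taken from the size of the values, since no source names the base. Gene symbols came from the platform annotation, updated through Entrez IDs to RefSeq. Of the tested probe sets, 11838 had 1 symbol, 1150 several and 4494 none.

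Probe sets with a highest signal of at least 5 were kept. The study's methods name this threshold, but the set it leaves of the deposited table differs in size from the study's. limma 3.58.1 in R 4.3.3 was fitted with vector and replicate 1 as terms, in place of the study's one-way analysis of variance, and p-values were adjusted by the Benjamini-Hochberg method over all 17482. Separate fits held 3 replicate levels, the interaction, or the vector alone. The script was tested on simulated data. Named genes were the 10 per direction with the smallest p among probe sets with 1 symbol, since none passed, up to 4 members of each list by p, and a few fixed genes, and others are said to be chosen later. Members and lists were chosen with earlier results of these data known. Windows held 25 genes with at least 20 in the last, and gene order followed RefSeq. No transcript passed, so the motif shares planned for called genes were given for the lower NF-κB list members, with the NF-κB consensus added later.

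Arrays of equal number deviated together from their vector means in all 9 pairs (r 0.137 to 0.594, against -0.512 to 0.266 for pairs of another number and vector), so a replicate block was added to the vector test as an alternative. The deviations of a vector sum to 0, so that positive values for equal numbers push the other pairs down. The distance between these ranges is therefore partly built in. The number of arrays limits the precision.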

Additional observations from a re-analysis of the deposited data

Results flagged for a closer look

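For 65 genes of the text, the 6 arrays of replicates 2 and 3 were examined for 1 array far from the rest, which chance gives in about 1 in 20 groups, and the vectors for opposite directions. ERBB2 read 6.24 on the replicate 2 array of the empty vector, and the next highest of the 6 read 5.88. MT1E, a metallothionein, read 9.36 on the TFPIα replicate 3 array and at most 8.79 on the other 5. ERBB2 also ran in opposite directions by vector, with differences of 0.16 in TFPIα and 0.14 in TFPIβ and -0.43 in the empty vector. KRT8 differed by -0.17 in TFPIα, by 0.08 in TFPIβ and by -0.13 in the empty vector. EXT1, a heparan sulfate polymerase on chromosome 8 chosen after its values were seen, differed by -0.37 in TFPIα and -0.31 in TFPIβ, and by 0.11 in the empty vector. The 3 differences between vectors rest on direction alone and were not tested.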

How the results depend on the processing

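The count of transcripts differing between replicate 1 and replicates 2 and 3 was 0 under all other fits and filters tried, except that dropping the vector block, or making it random, gave 1, and leaving out an array gave 0 to 1 (TSPAN1 without the TFPIα replicate 3 array, REXO1L1P without the TFPIβ replicate 2 array). Leaving out an array gave 0 to 2 calls between replicates 1 and 2 (20 with all arrays), 0 to 1 between replicates 1 and 3, 0 to 88 between replicates 3 and 2, with 88 only without the TFPIα replicate 2 array, and 0 to 1 among vectors. With the replicate block the vector test gave 0 (lowest adjusted p = 0.0981, limma). Centring the arrays gave 1035 transcripts above and 1436 below both other replicates, and quantile normalisation gave 1376 below. Leaving out an array or a replicate number gave differences of -0.15 to 0.15 for ERBB2, -0.18 to 0.03 for KRT8 and -0.29 to 1.22 for MKI67. ERBB2 turned without the empty vector replicate 1 array (0.15), without its replicate 2 array (0.04) and without replicate 2 (0.00), and without replicate 2 so did KRT8 (0.03) and MKI67 (-0.29). Leaving out an array moved the median over chromosome 8 between -0.14 and -0.06 and that of the tested let-7 probe sets between 0.34 and 0.55. With windows of 15 or 40 genes, 10 and 7 of the 10 lowest lay on chromosome 8. The chromosome 8, let-7 and window alternatives were chosen after seeing the data. With 3 replicate 1 arrays, and 1 per vector, differences within a vector have no replicate check.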
